A study of Mus musculus with 50 samples.

Results

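Mature skeletal muscle fiber genes were followed in bulk RNA sequencing of mouse sarcomas that grow inside a leg muscle. The set held 36 genes of the 37469 in the count table. They were taken by name, as genes whose products make up the contractile, calcium handling and energy machinery of a finished muscle fiber. All 36 matched a row, and all 36 passed the filter on low counts. By role, 10 genes encode thick filament proteins, 8 thin filament proteins, 8 titin and Z-disc proteins, 6 calcium handling proteins, and 4 proteins of energy and oxygen supply. By fiber type, 13 are textbook fast fiber genes, 8 are slow fiber genes and 15 are used by both.

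The tumors were p53/MCA sarcomas of syngeneic mice on a 129/SvJae background. Primary tumors were raised in Trp53 fl/fl mice of 6 to 10 weeks of age by injecting an adenovirus that carries Cre recombinase, and then 300 µg of the carcinogen 3-methylcholanthrene (MCA), into the gastrocnemius, the main calf muscle. Transplant tumors came from 50000 cells of a single primary tumor cell line, 402230, implanted in the calf of syngeneic mice, so all transplants share the tumor cells of 1 line. At a tumor volume that the labels give as about 150 mm3, each mouse received 200 µg of the anti-PD-1 antibody muDX400 or of an isotype control antibody, followed by 0 or 20 Gy to the whole left hind limb, and the tumor was taken 3 days later. This gave 8 groups, with 8 tumors in each of the 4 primary groups and 4 tumors in each of the 4 transplant groups. Line 402230 itself gave 2 further libraries, 1 labelled primary tumor and 1 labelled cell line, which are unreplicated and were kept out of the main tests. The library labelled primary tumor was counted as an untreated primary tumor in 1 alternative fit.

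In a muscle fiber, myosin in the thick filament pulls on actin in the thin filament, and troponin on the thin filament switches this on when calcium rises. Calcium leaves the sarcoplasmic reticulum through the ryanodine receptor and is pumped back by the SERCA pumps. Titin, nebulin and the Z-disc proteins hold the filaments in register, while creatine kinase, enolase, glycogen phosphorylase and myoglobin supply energy and oxygen. Fast and slow fibers use different genes for most of these parts, so the gene pairs differ in level between fiber types. The calf muscle of a mouse is built mostly of fast fibers. In bulk tissue RNA, fewer fibers and less RNA per fiber cannot be told apart.

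Promoters of 5 members that bracket the results are printed here, as 1 gene of both fiber types (Acta1), a pair of fast genes (Mylpf and Myh4) and a pair of slow genes (Myh7 and Tnnt1). They are RefSeq sequence of build GRCm38.p6, 5′ to 3′ on the strand of the gene, ending at the base before the RefSeq transcript start, or, for Tnnt1, before the first annotated exon. Capitals mark E-boxes (CANNTG, the letters that myogenic bHLH factors read), the letters TATAAA and CArG boxes (the serum response factor motif).
Acta1 (chr8:123894776-123894925, minus strand): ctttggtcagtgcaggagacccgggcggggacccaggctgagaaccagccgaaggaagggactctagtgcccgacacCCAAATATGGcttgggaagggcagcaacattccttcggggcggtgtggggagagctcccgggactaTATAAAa
Mylpf (chr7:127211458-127211607, plus strand): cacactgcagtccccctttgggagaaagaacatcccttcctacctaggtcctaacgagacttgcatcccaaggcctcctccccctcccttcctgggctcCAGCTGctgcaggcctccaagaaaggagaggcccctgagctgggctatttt
Myh4 (chr11:67237662-67237811, plus strand): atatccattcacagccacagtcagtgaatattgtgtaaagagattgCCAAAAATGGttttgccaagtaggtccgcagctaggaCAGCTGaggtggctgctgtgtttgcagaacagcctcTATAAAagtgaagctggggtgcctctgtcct
Myh7 (chr14:54994627-54994776, minus strand): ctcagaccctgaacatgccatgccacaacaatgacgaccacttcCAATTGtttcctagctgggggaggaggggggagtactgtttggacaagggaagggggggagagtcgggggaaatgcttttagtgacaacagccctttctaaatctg
Tnnt1 (chr7:4516005-4516125, minus strand): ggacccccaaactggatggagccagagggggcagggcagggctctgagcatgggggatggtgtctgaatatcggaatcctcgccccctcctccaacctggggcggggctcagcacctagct
The CArG box of Acta1 starts 73 bases before its transcript start. The E-box CAGCTG lies 51 bases before the start of Mylpf and 67 bases before that of Myh4. Over the 250 bases before the start, 28 members had an entry, and 23 of them (82.1%) held the letters CANNTG on either strand, against 66.0% of all 27025 promoters of that length. The single form CAGCTG, which is also counted among the CANNTG matches, was in 11 of the 28 (39.3%) and in 12.8% of all promoters. The letters CATTCC were in 35.7% of the members and 12.6% of all, and TATAAA in 17.9% and 13.0%. A MEF2 box stood in 17.9% of the members and 3.01% of all promoters, and a CArG box in 14.3% and 1.40%. The printed stretches are only part of these 250 bases, and in Tnnt1 the E-box and the TATAAA that were counted lie outside the printed bases. These matches describe the letters only.

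The 48 tumor libraries held 31810461 to 54008259 counts. Replicate tumors were separate libraries, and the lowest chi-square between any 2 of a group was 93.6 per degree of freedom, far from a repeated library. The labels of the 402230 libraries went against their markers. The library labelled primary tumor (48457411 counts) had all 6 leukocyte, all 6 endothelial and all 5 red cell genes below the lowest of the 48 tumors, with the pan-leukocyte gene Ptprc at 0.112 CPM (the count scaled to the library size) and the endothelial gene Pecam1 at 0.112 CPM. The library labelled cell line (41226531 counts) had none of these 17 genes below the tumors, with Ptprc at 81.9 CPM and Pecam1 at 104.4 CPM.

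The fiber genes took a share of the library that varied more between tumors than between groups. Over the 48 tumors the members held from 0.0303% to 10.3% of all counts, with a median of 0.433%. In unirradiated primary tumors the share had a lowest, median and highest value of 0.0399%, 0.329% and 1.05% with isotype (n = 8), and 0.0799%, 0.260% and 1.16% with anti-PD-1 (n = 8). In irradiated primary tumors the same 3 values were 0.0660%, 0.276% and 6.45% with isotype (n = 8), and 0.0303%, 0.372% and 10.3% with anti-PD-1 (n = 8). The medians of the 4 primary groups thus lay close together, and the irradiated groups differed from the others in their upper tail.

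Transplants carried the fiber genes at a higher typical share, with wide overlap. Untreated transplants held 0.0565%, 0.440%, 1.59% and 3.18%, and unirradiated transplants given anti-PD-1 held 0.418%, 0.732%, 0.988% and 2.48%. After 20 Gy the shares were 0.0470%, 0.514%, 1.15% and 1.91% with isotype, and 0.364%, 0.433%, 1.52% and 2.24% with anti-PD-1. The median was 0.860% over the 16 transplants and 0.318% over the 32 primary tumors, and 14 of the 16 transplants lay above the primary median. No transplant lay below the lowest primary tumor or above the highest. The share is a score over the members and was given no test.

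**Figure D1:**
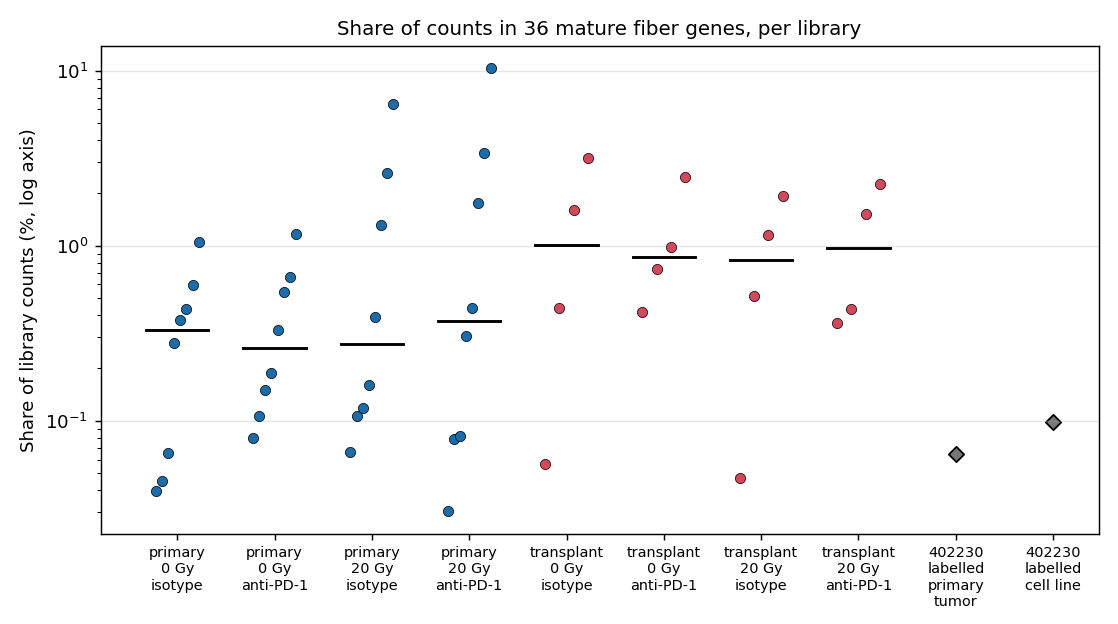
Share of each library's counts that fell on the 36 fiber genes (vertical axis, percent, log scale), for the 8 groups and the 2 libraries of line 402230. Each point is 1 library and each bar a group median; the irradiated primary groups reach 6.45% and 10.3%, while their medians stay at 0.276% and 0.372%.

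Per kilobase of exon, α-actin led the set. The median level over 48 tumors was 401 CPM per kb for Acta1 (skeletal α-actin), ahead of fast troponin T (Tnnt3, 132.9), the fast regulatory light chain (Mylpf, 131.7), fast troponin C (Tnnc2, 116.6) and the fast heavy chain IIb (Myh4, 103.3). The calcium pump of fast fibers, Atp2a1, followed at 93.3 CPM per kb and muscle creatine kinase, Ckm, at 64.2. At the other end stood the slow light chain Myl3 (0.605 CPM per kb), titin (Ttn, 0.523) and the slow heavy chain Myh7 (0.326). The slow pump Atp2a2 lay beside Ckm at 63.4 CPM per kb and Mybpc1 at 15.3, and the other 6 slow genes, Tnnt1, Tnnc1, Myl2, Tnni1, Myl3 and Myh7, lay at 3.98 CPM per kb or below.

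The span of single genes was wide. Acta1 ran from 2.19 to 19384 CPM and Myh4 from 2.29 to 21022 CPM. Parvalbumin (Pvalb, a calcium buffer of fast fibers) ran from 0.117 to 2886 CPM, and myoglobin (Mb), which stores oxygen, from 0.137 to 1585 CPM. The highest library of 28 members was the same tumor, replicate 4 of the irradiated primary group with anti-PD-1. The slow genes Myh7, Myl2, Myl3, Tnnt1, Tnni1 and Tnnc1 instead all peaked in replicate 1 of the unirradiated transplants with anti-PD-1, and Xirp2, a repair protein of the Z-disc and muscle-tendon junction, in replicate 4 of the irradiated primary group with isotype. Myh7 and Myl3 had a count of 0 in 3 tumors each and Myot in 1, where 3 counts would correspond to 0.0586 to 0.0863 CPM.

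Nearly all members rose and fell together from tumor to tumor. The SD of log2 CPM over 48 tumors was above the 95th percentile of all tested genes for 35 of 36 members, with 2.87 for Acta1, 3.31 for Myh4 and 1.70 for Eno3 (muscle enolase), while the median gene had 0.55. Spearman's rho with the mean of the members was 0.93 to 0.99 for 29 members. It was 0.73 to 0.78 for Myh7, Tnnc1, Myl3, Myl2, Tnnt1 and Tnni1. Among the 13 fast genes the median rho of a pair was 0.96, among those 6 slow genes 0.88, and between the fast genes and those 6 slow genes 0.63. Mybpc1, listed as slow, had a median rho of 0.93 with the fast genes. These coefficients are descriptions over 48 tumors that share groups. Mean log2 levels of other gene lists moved with the member mean to varying degrees. Their rho was 0.86 for myogenic genes, 0.72 for adipose genes, 0.62 for nerve glia genes, 0.45 for leukocyte genes and −0.11 for matrix genes. Their part in the shared variation of the members was not tested.

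Atp2a2 stood apart from the other 35. It encodes SERCA2, the pump of slow fibers and heart, which many other cell types also use. Its level was 203 to 742 CPM, its SD of 0.41 lay at the 34.1st percentile, and its rho with the member mean was 0.01. In the tumors with the smallest fiber share, Atp2a2 alone therefore made up most of the member counts. Without it the lowest share was 0.00410% rather than 0.0303%.

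**Figure D2:**
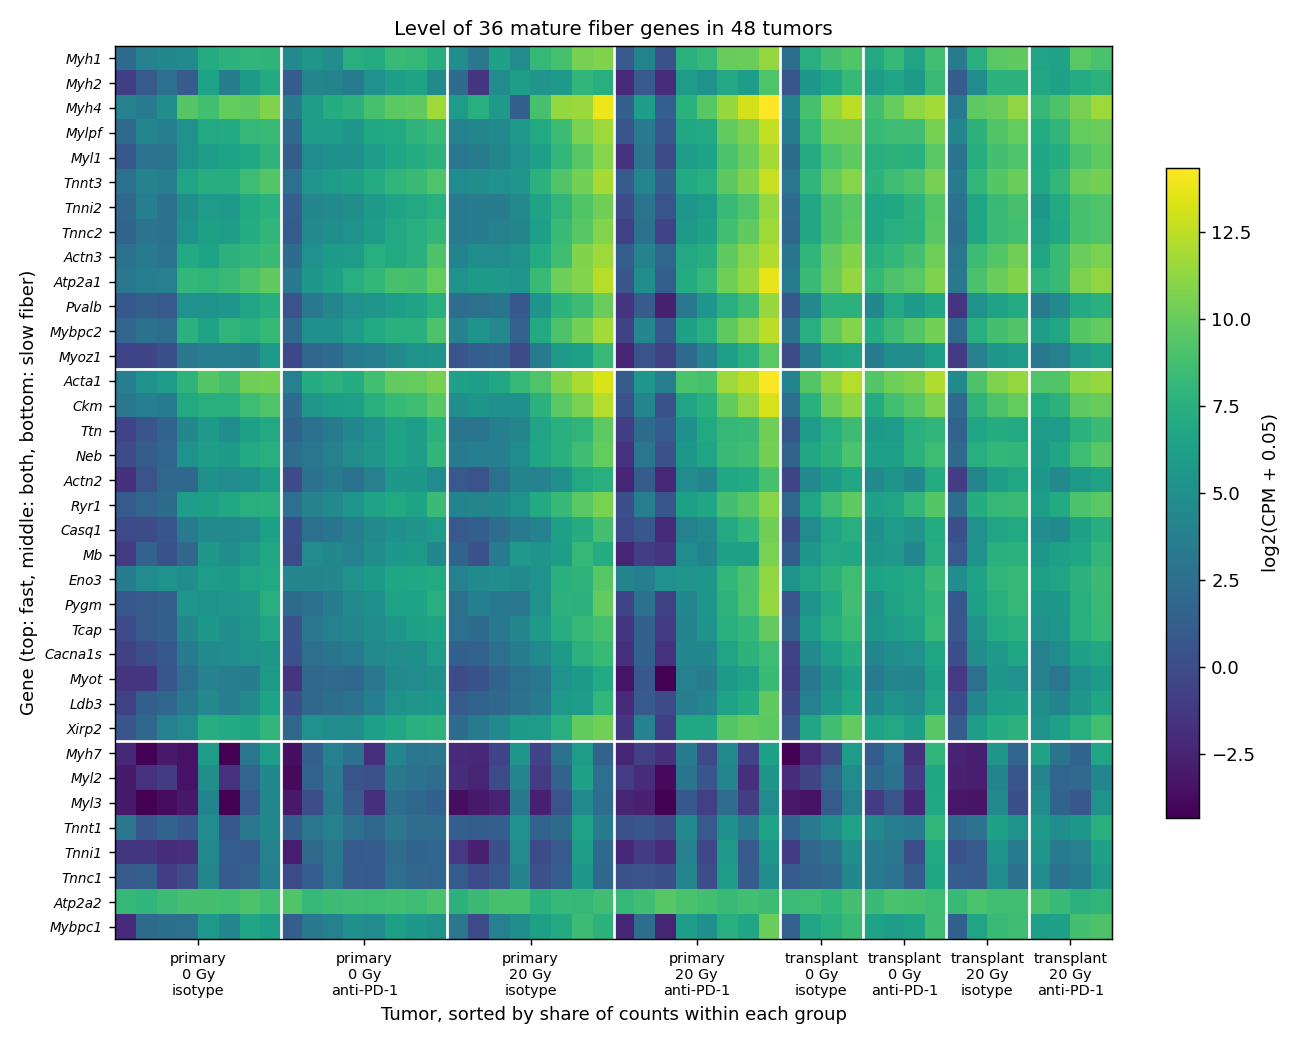
Level of the 36 genes (rows: fast, both and slow fiber genes from top to bottom) in 48 tumors (columns, sorted by fiber gene share within each group), as log2(CPM + 0.05). Most rows brighten together toward the right of each group. Atp2a2 keeps an even level of 203 to 742 CPM. The slow genes other than Atp2a2 and Mybpc1 follow the common order less closely.

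Outside the set, the 10 genes whose log2 CPM followed the member mean most closely had rho values of 0.98. They were Sh3bgr, Myom1, Eef1a2, Trdn, Pgam2, Sypl2, Kcnj11, Smyd1, Mypn and Alpk3. Myom1 (myomesin of the M-band), Trdn (triadin, beside the ryanodine receptor) and Pgam2 (muscle phosphoglycerate mutase) are among 55 other fiber genes listed for comparison. The remaining 7 are on no list used here.

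The fiber RNA in the tumors was mainly of fast type. Among the counts per kilobase of the 4 adult myosin heavy chain genes, Myh4 (IIb) had a median of 71.5% in primary tumors and 72.7% in transplants. Myh1 (IIx) had 21.4% and 18.6%, Myh2 (IIa) 4.38% and 5.76%, and slow Myh7 0.338% and 0.339%. Myh4 was the largest of the 4 in 44 of 48 tumors, Myh1 in 3 and Myh2 in 1. Myh1, Myh2 and Myh4 are neighbours on chromosome 11 with near-identical coding sequence, so their split is less certain than their sum.

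A single tumor had Myh2 as its largest heavy chain and the highest share of Myh7. In replicate 2 of the irradiated primary group with isotype, Myh4 made up 2.23%, Myh1 20.9%, Myh2 50.4% and Myh7 26.5% of the 4 heavy chains. There Myh4 was at 2.65 CPM and Myh7 at 45.2 CPM, although Acta1 was at 280 CPM. The fast gene was still the higher one there in 6 of the 9 pairs described next, by a log2 ratio of 0.61 for Tnnc2 to Tnnc1 up to 2.35 for Mylpf to Myl2. In replicate 4 of the irradiated transplants with anti-PD-1, Myh7 made up 11.8% and Myh4 52.5%.

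**Figure D3:**
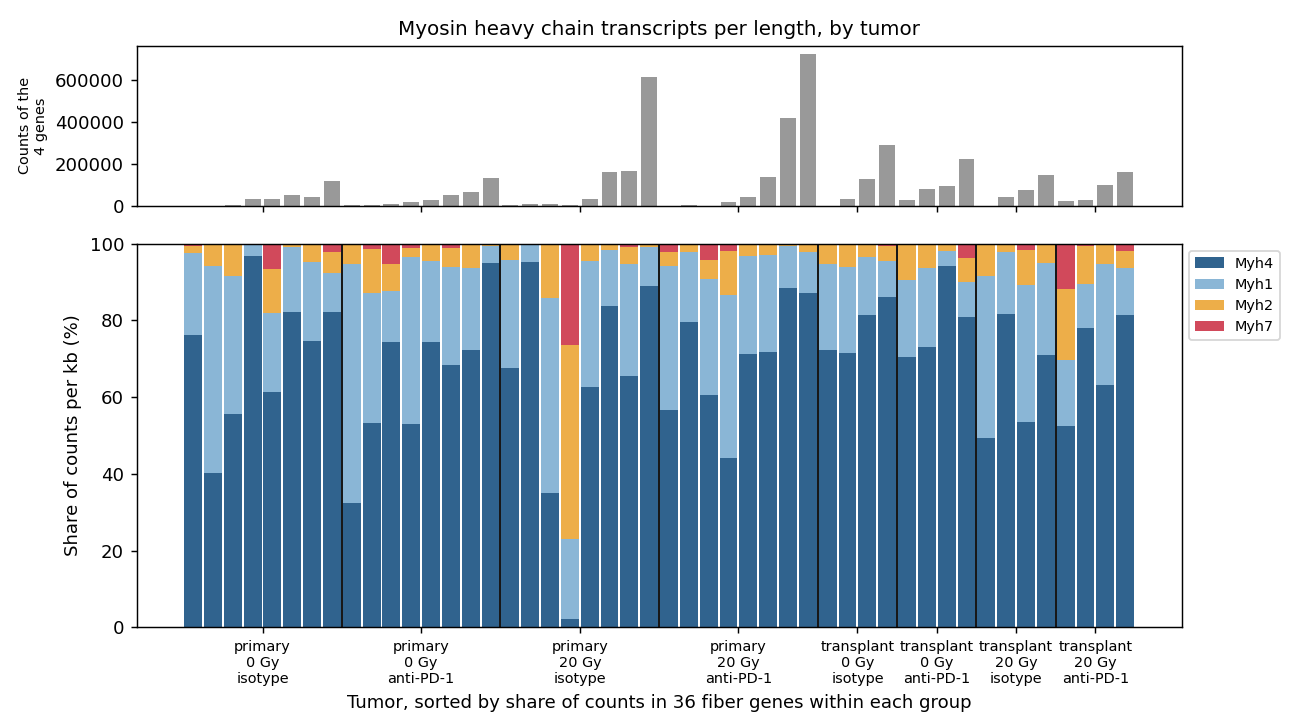
Lower panel: share of counts per kilobase (percent) of Myh4, Myh1, Myh2 and Myh7 in each tumor, sorted by fiber gene share within each group. Upper panel: counts of the 4 genes together in the same tumor, so that bars resting on few counts can be seen; Myh4 leads in 44 of 48 tumors.

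The 9 gene pairs set a fast gene beside a slow one, or, for Actn3, beside Actn2, which is listed as used by both fiber types. They gave the same picture, with a wide range. As log2 of the ratio of counts per kilobase, Myh4 to Myh7 had a median of 7.49 and a lowest value of −3.56 in primary tumors, and a median of 7.76 in transplants (2.15 to 13.58). The highest primary value rests on a Myh7 count of 0, and so on the 0.5 counts added to each gene, and is not given. The fast gene was higher in 47 of 48 tumors for Myh4 to Myh7 and for Mybpc2 to Mybpc1 (myosin binding protein C), in 46 for the troponin C pair Tnnc2 to Tnnc1, and in all 48 for Mylpf to Myl2, Myl1 to Myl3, Tnnt3 to Tnnt1, Tnni2 to Tnni1 and Actn3 to Actn2 (α-actinin). For Atp2a1 to Atp2a2 the fast pump was higher in 29 of 48, with medians of −0.07 in primary tumors and 1.21 in transplants.

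The other pairs had similar medians in both models beside their spread. Tnnt3 to Tnnt1 had a median log2 ratio of 4.44 in primary tumors (SD 2.24, n = 32) and 4.29 in transplants (SD 1.496, n = 16). Tnni2 to Tnni1, the inhibitory troponins, had 5.84 (SD 2.03) and 5.03 (SD 1.83). Mybpc2 to Mybpc1 had 2.23 (SD 1.75) and 1.12 (SD 0.88), and Actn3 to Actn2 3.44 (SD 1.06) and 4.07 (SD 0.85). The difference in medians was smaller than 1 SD within either model for 8 of the 9 pairs. The exception was Mybpc2 to Mybpc1, where it exceeded the SD of the transplants, and none was tested.

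Tnnt1 was the single member that edgeR called between transplant and primary tumors over all treatments. Tnnt1 is slow troponin T, the subunit that anchors the troponin complex on tropomyosin in slow fibers (build GRCm38, chromosome 7, 4504570 to 4516382, minus strand, protein coding). In primary tumors its lowest, median and highest levels were 1.53, 5.68 and 26.1 CPM untreated, 2.22, 5.64 and 13.8 CPM with anti-PD-1, 2.21, 3.95 and 87.6 CPM with 20 Gy, and 0.938, 5.41 and 88.9 CPM with both. The highest primary tumors were in the irradiated groups.

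Untreated transplants had Tnnt1 at 2.93, 10.1, 28.7 and 85.9 CPM, and those given anti-PD-1 alone at 10.8, 12.6, 24.4 and 265 CPM. With 20 Gy and isotype it was 4.13, 6.74, 36.1 and 81.0 CPM, and with 20 Gy and anti-PD-1 28.8, 50.7, 52.1 and 186 CPM. The groups overlapped in part, and 14 of the 16 transplants lay above the primary median of 5.07 CPM.

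Averaged over the 4 treatments, Tnnt1 was higher in transplants by a log2 fold change of 2.04 ± 0.51 (SE), with an adjusted p of 0.00151 by edgeR's quasi-likelihood test with Benjamini-Hochberg adjustment over 19327 genes. It was the only member called of 36. Of all genes tested 34.8% were called in either direction and 15.7% were called higher in transplants, so the share of members called was below the background. The median log2 fold change of the members was 0.52, against 0.00 for all genes. By treatment, Tnnt1 had an adjusted p of 0.030 for anti-PD-1 alone (log2 fold change 3.57), 0.274 untreated (1.81), 0.741 for 20 Gy with isotype (0.79) and 0.234 for 20 Gy with anti-PD-1 (1.99).

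The median log2 fold change in this comparison was 1.23 for the 8 slow members, 0.56 for the 13 fast members and 0.44 for the 15 of both, and no test set these groups against each other. Mybpc1 (slow myosin binding protein C) had 1.53 ± 0.64 with an edgeR adjusted p of 0.059, and Tnni1 (slow troponin I) 1.47 ± 0.68 with 0.088. Myh7 had 1.12 ± 0.89 with 0.353, and Atp2a2 −0.06 ± 0.12 with 0.738. With limma voom, 5 members were called higher, Tnnt1, Tnni1, Mybpc1, Myh2 and Tnnc1, where 19.0% of all genes were called higher. DESeq2 called 2, Tnnt1 and Mybpc1, where 15.5% of all genes were called higher.

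No fast or shared member was called between the models by edgeR. Acta1 had lowest, median and highest values of 2.19, 446 and 19384 CPM in primary tumors and 17.4, 1402 and 5063 CPM in transplants, with a log2 fold change of 0.44 ± 0.69 and an edgeR adjusted p of 0.660. Myh4 had medians of 450 and 1026 CPM, with 0.04 ± 0.78 and an edgeR adjusted p of 0.976. Fast troponin I, Tnni2, had medians of 50.4 and 180 CPM, with 0.88 ± 0.66 and an edgeR adjusted p of 0.317. For these genes the medians were higher in transplants, while the highest single values were in primary tumors. The members' median log2 fold change was 1.71 for anti-PD-1 alone, −0.40 for 20 Gy with isotype and −0.80 for 20 Gy with anti-PD-1, so its sign was not the same in every treatment. Without the 2 primary tumors of highest fiber share, a choice made after their values were seen, the median over all treatments was 1.13 and 4 members were called, Tnnt1, Mybpc1, Tnni2 and Eno3, beside 16.6% of all genes called higher.

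In the untreated tumors alone, no member was called by edgeR, and none had an unadjusted p under 0.05. DESeq2 and limma voom also called 0. Over all genes 10.3% were called. The median log2 fold change of the members was 1.82, with 33 of 36 above 0, and the smallest adjusted p was 0.214 by edgeR. Tnni2 had 2.37 ± 1.30, Ckm 2.25 ± 1.43, Xirp2 2.03 ± 1.32 and Acta1 1.94 ± 1.34, so the standard errors were large beside the differences.

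**Figure D4:**
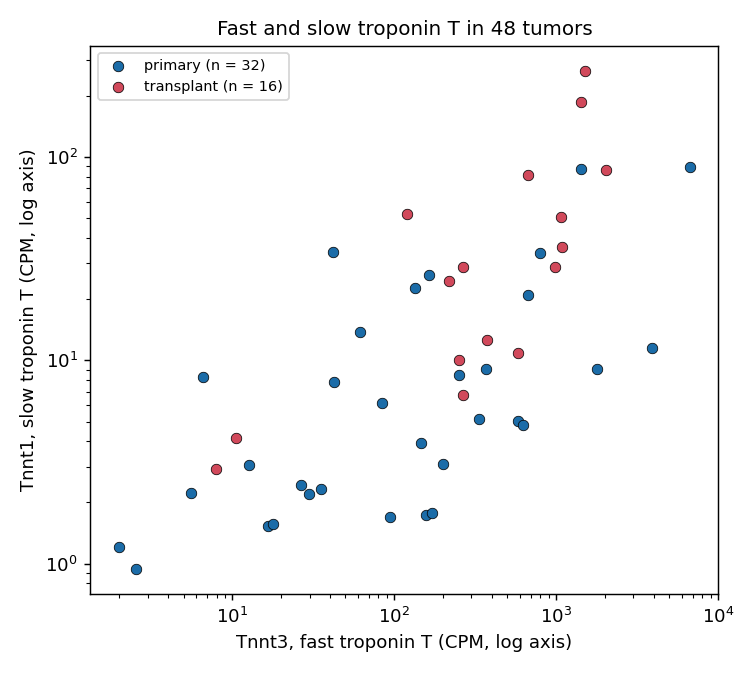
Tnnt1 (slow troponin T, vertical) against Tnnt3 (fast troponin T, horizontal) in 48 tumors, both in CPM on log axes; each point is 1 tumor, colored by model. Of the 16 transplants, 14 lie above the primary median of Tnnt1, 5.07 CPM, and 13 above that of Tnnt3.

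Genes of immature or repairing muscle were measured beside the mature genes. Of 17 myogenic and regenerating fiber genes, 16 were tested, and over the 4 treatments 13 were called higher and 1 lower in transplants. Of all genes tested, 15.7% were called higher. The 5 largest were Myh8 (perinatal myosin, log2 fold change 3.14), Mymx (myomixer, which fuses myoblasts, 2.80), Myh3 (embryonic myosin, 2.58), Chrng (the fetal acetylcholine receptor subunit, 2.38) and Myf5 (a myogenic factor, 2.34). Myf5 and Mymx were low, at no more than 3.81 and 4.19 CPM in any tumor. Summed over the 17 genes, the median level was 234 CPM in primary tumors and 251 CPM in transplants. Ncam1 and Chrna1 had the highest medians of that list, 75.7 and 58.9 CPM over the 48 tumors. Of the 55 other fiber genes, 3 were called higher, Sln (sarcolipin, 3.43), Myom3 (1.94) and Des (desmin, 1.63).

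Markers of other cell types differed between the models as well. Of 6 genes each, 5 matrix genes, 4 smooth muscle genes and 2 nerve glia genes were called lower in transplants, and 2 leukocyte genes (Cd3e and Ptprc) and 2 adipose genes (Cidec and Fabp4) higher. The smooth muscle genes Cnn1 (−3.87) and Tagln (−2.93) fell most, and Cdh5 was the 1 endothelial gene called lower (−0.61). Of the cardiac genes Ryr2 was lower (−1.63) and Mybpc3 higher (0.67), and no red cell gene was called. Ryr2 and Mybpc3 were low, at no more than 0.689 and 0.818 CPM in any tumor. The part of these other cell types in the Tnnt1 result was not tested.

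Most fiber genes were called higher in irradiated primary tumors by edgeR, and the calls rested on a pair of tumors. With 20 Gy against 0 Gy, 23 of the 36 members were called higher and 0 lower, where 31.0% of all genes were called in either direction and 16.8% higher. The median log2 fold change was 2.20 for the members and 0.00 for all genes. Called were 11 of 13 fast genes, 11 of 15 shared genes and 1 of 8 slow genes (Mybpc1, which followed the fast genes from tumor to tumor).

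By role, the call took in 5 of 10 thick filament genes, 4 of 8 thin filament genes, 5 of 8 titin and Z-disc genes, 5 of 6 calcium handling genes and all 4 energy and oxygen genes. The largest changes were in the light chains Mylpf (2.89 ± 0.86, adjusted p = 0.00916 by edgeR) and Myl1 (2.79 ± 0.87, adjusted p = 0.0126 by edgeR). Eno3 had the smallest adjusted p, 0.00594 by edgeR, at 2.15 ± 0.60. The remaining called members were Mybpc2, Ckm, Casq1, Pvalb, Myoz1, Tnnc2, Pygm, Actn3, Tnni2, Acta1, Tnnt3, Atp2a1, Ttn, Ryr1, Myh1, Tcap, Mb, Ldb3, Cacna1s and Mybpc1, at 2.09 to 2.67.

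The 13 members that were not called ran from −0.10 for Atp2a2 to 2.34 for Myh4 (adjusted p = 0.056 by edgeR). Among them were Neb (2.01, nebulin), Xirp2 (1.92), Actn2 (1.74), Myot (1.74, myotilin), Myh2 (1.38) and 6 further slow genes, Tnni1 (1.63), Tnnc1 (1.51), Tnnt1 (1.31), Myl2 (0.96), Myh7 (0.34) and Myl3 (0.21). Myh4 had lowest, median and highest levels of 11.1, 450 and 3284 CPM at 0 Gy and 2.29, 345 and 21022 CPM at 20 Gy. Myh7 had 0, 4.46 and 67.5 CPM and then 0.137, 0.737 and 76.8 CPM. Tnni1 had 0.0903, 2.21 and 22.01 CPM and then 0.118, 1.47 and 68.3 CPM. All 3 had a lower median and a higher top value after 20 Gy.

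The levels behind these folds overlapped between the doses. Mylpf had lowest, median and highest levels of 4.17, 89.1 and 319 CPM at 0 Gy and 1.48, 118.8 and 6414 CPM at 20 Gy (n = 16 each). Acta1 had 12.4, 328 and 1464 CPM and then 2.19, 515 and 19384 CPM. Ckm had 4.66, 150.4 and 714 CPM and then 1.19, 140.8 and 9785 CPM. In each case the medians lay near each other, and the irradiated group reached both lower and higher than the unirradiated group.

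The same held across roles. Atp2a1, the fast calcium pump, had 8.83, 251 and 1005 CPM at 0 Gy and 1.48, 209 and 12734 CPM at 20 Gy. Pvalb had 1.32, 35.7 and 168 CPM and then 0.117, 24.8 and 2886 CPM. Myoglobin (Mb) had 0.391, 23.5 and 109.5 CPM and then 0.137, 33.8 and 1585 CPM. The medians of these 3 genes stayed close while the highest irradiated tumor stood far above the highest unirradiated one.

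Ttn (titin) had 0.6255, 25.0 and 196 CPM at 0 Gy and 0.492, 66.1 and 1268 CPM at 20 Gy. Tnni2 had 2.35, 42.5 and 195 CPM and then 0.985, 54.9 and 2770 CPM. Eno3 had 11.2, 48.5 and 127.97 CPM and then 13.1, 40.3 and 2459 CPM. Xirp2, which was not called, had 1.46, 55.2 and 250 CPM and then 0.328, 90.5 and 1346 CPM.

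Some called members had a lower median after 20 Gy. These were Ckm, Atp2a1, Pvalb and Eno3, and also Casq1 (calsequestrin, 17.7 and 14.6 CPM), Pygm (muscle glycogen phosphorylase, 35.5 and 27.9 CPM), Mybpc2 (114.02 and 107.3 CPM) and Myoz1 (11.1 and 7.33 CPM). Their means were higher after 20 Gy, for example 203 and 1326 CPM for Ckm. In the remaining called members, such as Mybpc1 (22.9 and 51.7 CPM) and Myh1 (147 and 234 CPM), the median was higher after 20 Gy.

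The fiber gene share exceeded the highest unirradiated value, 1.16%, in 6 of 16 irradiated primary tumors, at 1.31%, 1.75%, 2.61%, 3.40%, 6.45% and 10.3%. The lowest irradiated tumor, at 0.0303%, was below all 16 unirradiated ones, and 9 of 16 lay above the unirradiated median of 0.305%. The irradiated tumors thus spread further in both directions.

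Without replicate 4 of the irradiated primary group with anti-PD-1, 1 member was called, while 14.9% of all genes were called higher. Without replicate 4 of that with isotype, 3 members were called, beside 15.5% of all genes. With both left out, a choice made after their values were seen, edgeR called 0 members and 2 had an unadjusted p under 0.05, the median log2 fold change was 1.05, and 14.4% of all genes were still called higher. Within isotype alone edgeR called 0 members (4 with an unadjusted p under 0.05) and 9.19% of all genes higher. Within anti-PD-1 alone it called 1 member (Eno3) and 7.92% of all genes higher. The shares of all genes refer to the adjusted threshold, so the counts at an unadjusted p under 0.05 have no background beside them.

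The tools differed in the same way. limma voom, which works on log values, called 0 members with a median log2 fold change of 0.62 and none with an unadjusted p under 0.05, while 12.7% of all genes were called higher. DESeq2 called 28 members higher beside 19.6% of all genes. Without the filter on low counts edgeR called 8, beside 8.84% of all genes.

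**Figure D5:**
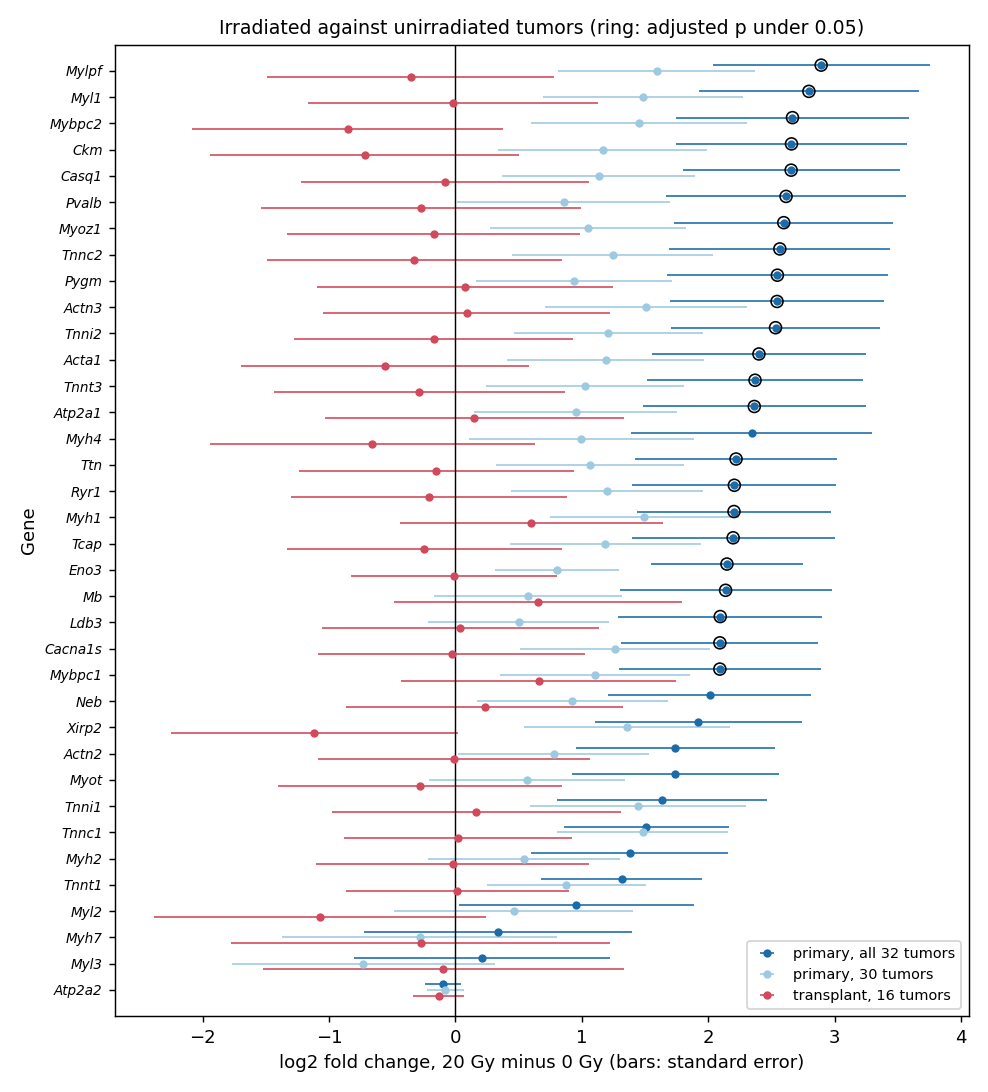
Log2 fold change of each member between 20 Gy and 0 Gy (points, with standard errors as bars) in all 32 primary tumors, in the 30 primary tumors left without the 2 of highest fiber share, and in the 16 transplants. Rings mark an adjusted p under 0.05; all 23 rings belong to the fit with all 32 primary tumors.

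Other muscle genes moved with the members. Of the 55 other fiber genes 36 were called higher in irradiated primary tumors, led by Sln (4.56), Phkg1 (2.79), Sgca (2.70), Myom2 (2.67) and Tmod4 (2.64). Of the 16 tested myogenic genes 13 were called higher, led by Actc1 (3.74), Myf5 (3.69) and Mymx (3.48). Over all genes 16.8% were called higher. The mean of the other fiber genes followed the member mean at a rho of 0.99. Neither list was examined without the 2 tumors of highest fiber share, on which the member calls rested. Myf5 and Mymx were low, at no more than 3.81 and 4.19 CPM in any tumor. Sln is a small inhibitor of the SERCA pumps, and Actc1 is the actin of heart and of immature fibers. Of 6 leukocyte genes, 3 were called higher (Ptprc 0.97, Lyz2 0.87, Itgam 0.80), and the summed level of all 6 ran from 899 to 2446 CPM at 0 Gy and from 986 to 5213 CPM at 20 Gy. Smooth muscle genes gave 1 higher (Myh11) and 2 lower (Acta2 and Smtn), and matrix genes 1 lower (Pdgfra, −0.61). Plin4 of adipose tissue (2.01), Sox10 of nerve glia (1.81) and Mybpc3 of the cardiac list (1.36) were each the 1 gene called higher, and no endothelial or red cell gene was called. Sox10 and Mybpc3 were low, at no more than 3.10 and 0.818 CPM in any tumor. The part of these other cell types in the result was not tested.

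In transplants the fiber genes gave no call for radiation. By edgeR 0 of 36 members were called and 0 had an unadjusted p under 0.05, and DESeq2 and limma voom also called 0, while 7.23% of all genes were called. The median log2 fold change of the members was −0.12. Acta1 ran from 17.4 to 5063 CPM without radiation (median 1402, n = 8) and from 23.2 to 2773 CPM with it (median 1155, n = 8), at −0.55 ± 1.14. Mylpf had −0.36 ± 1.13 and Ckm −0.72 ± 1.22. For these 3 genes the standard error was larger than the fitted difference.

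The radiation effect was not shown to differ between the models. The interaction was called by edgeR, at the adjusted threshold, for 0 of 36 members and for 0.0259% of all genes, and DESeq2 and limma voom called 0 members. By edgeR 6 members had an unadjusted p under 0.05. The share of all genes at that unadjusted threshold is not given here, so the 6 are not set against a background. Those 6 were Mybpc2 (−3.52 ± 1.56), Ckm (−3.37 ± 1.54), Mylpf (−3.25 ± 1.43), Xirp2 (−3.03 ± 1.41), Acta1 (−2.95 ± 1.43) and Eno3 (−2.16 ± 1.02), with edgeR adjusted p of 0.505 or more. Without the 2 primary tumors of highest fiber share the median went from −2.29 to −1.20, and 0 members had an unadjusted p under 0.05.

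PD-1 blockade left no called difference in the fiber genes. In primary tumors 0 of 36 members were called by edgeR, DESeq2 or limma voom, 0 had an unadjusted p under 0.05 by edgeR, and 0.0155% of all genes were called. In transplants the counts were again 0 by each tool and 0 at the unadjusted threshold by edgeR, with 0% of all genes called. The interaction with the tumor model also gave 0 by each tool, 0 at the unadjusted threshold by edgeR, and 0% of all genes. The median log2 fold changes of the members were 0.39 in primary tumors and 0.11 in transplants, and Tnnt1 in transplants had 1.30 ± 0.90.

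The libraries of line 402230 held fiber genes in an order opposite to their labels. The library labelled cell line had 33 of 36 members at 1 CPM or more, with Acta1 at 56.6 CPM, Myh4 at 51.2 CPM (2365 counts), Atp2a1 at 34.04 CPM and Ckm at 17.4 CPM. The library labelled primary tumor had 7 members at 1 CPM or more and 9 at a count of 0, with Acta1 at 0.469 CPM and Myh4 and Ckm at 1 count each. There Atp2a2 had 639 CPM and Eno3 51.3 CPM, and the other 5 were Tnnc1, Myh1, Tnnt1, Actn3 and Mylpf, at 1.05 to 2.17 CPM. The members' share of counts was 0.0982% in the library labelled cell line and 0.0647% in that labelled primary tumor, and Atp2a2 alone made up 0.0591% in the latter.

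Some members share their locus with another gene. Tnnc1 overlaps Nisch on the opposite strand, which reached 27364 counts, and Tnnc2 overlaps Ube2c with 7205 counts. Mb overlaps Apol6 (5098 counts), Tnnt3 overlaps Prr33 (2442), Atp2a1 overlaps Rabep2 (2045) and Myl3 overlaps Pth1r (1088), each on the opposite strand. The library kit keeps strand, but the strand setting of the counting is not given in the sources used here, so low levels of these members, of Tnnc1 above all, are uncertain.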

How the data were processed

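Total RNA of each tumor was extracted, kept only at an RNA integrity number above the authors' limit, captured with oligo-dT and made into stranded libraries. Per the authors, Trimmomatic 0.36 removed adapters and poor reads, STAR placed the rest on mm10, and HTSeq as built into STAR counted reads per GENCODE gene. They deposited raw counts per gene, not normalized, for 50 libraries. No column was left without a sample. Symbols came from a name table (37408 of 37469 IDs matched), and exon lengths and positions from GENCODE M21 on GRCm38, a later release than the one counted.

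The members and gene lists were chosen with earlier results of these data known. Counts were scaled by TMM and filtered with filterByExpr, and 1 mean per group was fitted over the 48 tumors in edgeR 4.0.16 (R 4.3.3) with the robust quasi-likelihood F test, two-sided, with Benjamini-Hochberg adjustment over all 19327 genes and a threshold of 0.05. CPM values use the TMM library sizes. Pair ratios add 0.5 counts to each gene and divide by exon length. Alternatives were DESeq2 1.42.0 size factors, DESeq2, limma voom 3.58.1, scaling without the fiber genes, no filter, single treatments, and leaving out each tumor. In 1 further alternative, the 402230 library labelled primary tumor was counted as an untreated primary tumor. The script was tested on simulated data. Named genes were all 36 members, those called in full, up to 5 called genes of each other list, and the 10 genes most like the members.

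Mouse numbers in the titles mark separate animals, and p-values measure the spread between these tumors. In transplants this is the spread between grafts of 1 cell line, not between lines. With library totals of 31810461 counts or more, scaled by TMM, 1 CPM rests on about 30 counts or more. Intervals from counting cover counting error only and are not printed.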

Additional observations from a re-analysis of the deposited data

Results flagged for a closer look

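The fiber gene share and 12 members were each checked in 8 groups for a library far from the rest. There were 3 such values, while chance flags about 1 in 20 groups. In the unirradiated primary group with anti-PD-1, replicate 7 had Tnni1 at 0.0903 CPM and Mb at 0.903 CPM, both far below the other 7 tumors. In the irradiated transplants with isotype, replicate 1 had Ttn at 2.88 CPM, far below the other 3. In both libraries the whole fiber gene share was the lowest of the group, at 0.0799% and 0.0470%.

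The library of line 402230 labelled cell line entered no comparison, and 33 of its 36 members were at 1 CPM or more, while the library labelled primary tumor had 7. The labels and the markers of these libraries go against each other, and which label is right was not tested.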

How the results depend on the processing

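No paired analysis was possible because the labels give no replicate numbers shared between groups. For radiation in primary tumors the 23 called members became 0 within isotype, 1 within anti-PD-1, 8 without the filter on low counts, 0 with limma voom, and 0 without the 2 tumors of highest fiber share (an alternative chosen after seeing the data), against 24, 24 and 28 with DESeq2 size factors, scaling without fiber genes and DESeq2. Leaving out each tumor gave 1 to 28, with 1 and 3 without replicate 4 of the irradiated primary groups with anti-PD-1 and with isotype. Among these genes 1 turned direction, Pvalb at −0.031 with limma voom. For transplant minus primary over 4 treatments the 1 called member became 0 within 20 Gy and isotype, 0 within 20 Gy and anti-PD-1, 5 with limma voom, 2 with DESeq2 and 4 without the 2 highest tumors (Tnnt1, Mybpc1, Eno3 and Tnni2), and 1 to 4 when each tumor was left out, with 4 without replicate 1 of the irradiated primary group with isotype and 2 without any of 6 others (replicate 1 of the untreated transplants, replicate 1 of the irradiated transplants with isotype, replicates 1 and 2 of the untreated primary group, and replicates 3 and 4 of the irradiated primary group with anti-PD-1). Tnnt1 stayed called in all 48 of these, with a log2 fold change of 1.48 to 2.30 and an adjusted p of 0.000344 to 0.0217 by edgeR, and in the 7 other fits over all treatments at 2.02 to 2.24. Of those 7 fits, 1 counted the 402230 library labelled primary tumor, whose markers go against its label, as an untreated primary tumor. Tnnc1 turned direction within 20 Gy and isotype, at −0.015. The other 6 comparisons gave 0 called members under every alternative run. The median ratio of Atp2a1 to Atp2a2 turned from 0.59 to −0.22 without division by length; the causes of these changes were not tested apart from what each alternative leaves out.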
